A study of Homo sapiens with 9 samples.

Results

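The 9 genes described here encode proteins by which platelets bind, signal and secrete, and were taken by name from the 20163 protein-coding genes annotated on hg19: ITGA2B, ITGB3, GP1BA, GP1BB, GP9, PF4, PPBP, VWF and SELP. At each of them H3K4me3, the trimethylation of lysine 4 of histone H3 that is found at active promoters, was read from peak lists as the largest peak signal within 1 kb of any annotated start, and beside it within 5 kb. The mark had been mapped by CUT&RUN, in which an antibody tethers a nuclease to chromatin and the fragments it releases are sequenced. All libraries came from HEL cells, an established human erythroleukemia line, grown in RPMI with serum and carrying a lentiviral CRISPR-Cas9 construct. NTC cells (3 libraries) carried a non-targeting guide, and METTL3-KO, METTL14-KO and WTAP-KO cells (2 libraries each) carried guides against 1 of these 3 subunits of the enzyme that writes N6-methyladenosine on messenger RNA. The labels give neither the time after transduction nor whether replicate libraries came from separate cultures, so the p-values below measure the spread between these libraries, which may be technical. H3K4me3 at a targeted gene does not report an edit, so the KO labels could not be checked from these lists.

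Platelets are shed by megakaryocytes, which share a bipotent progenitor with red cells. The glycoprotein Ib-IX complex (GP1BA, GP1BB, GP9 and, more loosely, GP5) catches von Willebrand factor (VWF) in flowing blood, and the integrin made of ITGA2B and ITGB3 then binds fibrinogen and joins platelets to each other. PF4 and PPBP are chemokines stored in the alpha granules, VWF is stored there too and in endothelial cells, and SELP is an adhesion receptor that moves from the granule membrane to the surface on activation. The promoters of these genes are textbook targets of GATA, ETS and RUNX factors, and HEL cells are known for carrying both red cell and megakaryocyte traits.

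The promoters of 5 of the 9 genes (ITGA2B, GP1BB, GP9, PPBP and SELP) were found in a RefSeq table that runs from 250 bases before to 50 bases after the start. The 250 bases before the start are printed 5′ to 3′ for 4 of them, chosen because they stand for the patterns described below: a peak over the start in KO libraries alone (ITGA2B), peaks in NTC libraries alone (GP1BB and GP9) and no peak in any library (PPBP). Capitals mark GATA words (AGATAA, or TGATAA with another first letter, or AGATAG with another last letter, or TGATAG with both) and the ETS word GGAAG, on either strand, and where a GATA and an ETS word overlap, as at PPBP, they form 1 run of capitals.
ITGA2B: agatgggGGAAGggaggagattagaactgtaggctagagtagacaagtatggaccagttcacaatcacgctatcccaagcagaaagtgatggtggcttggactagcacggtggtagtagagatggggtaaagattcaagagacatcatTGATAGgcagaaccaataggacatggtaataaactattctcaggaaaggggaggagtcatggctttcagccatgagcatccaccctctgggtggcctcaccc
GP1BB: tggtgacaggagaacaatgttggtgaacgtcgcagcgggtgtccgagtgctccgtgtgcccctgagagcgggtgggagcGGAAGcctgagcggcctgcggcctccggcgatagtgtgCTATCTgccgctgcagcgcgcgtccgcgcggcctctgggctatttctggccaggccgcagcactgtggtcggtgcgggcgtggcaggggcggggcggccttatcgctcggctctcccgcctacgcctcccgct
GP9: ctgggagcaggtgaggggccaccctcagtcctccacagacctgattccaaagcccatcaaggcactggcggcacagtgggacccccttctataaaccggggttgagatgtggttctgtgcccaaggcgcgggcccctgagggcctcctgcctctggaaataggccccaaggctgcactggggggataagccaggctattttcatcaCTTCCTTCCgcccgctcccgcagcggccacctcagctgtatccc
PPBP: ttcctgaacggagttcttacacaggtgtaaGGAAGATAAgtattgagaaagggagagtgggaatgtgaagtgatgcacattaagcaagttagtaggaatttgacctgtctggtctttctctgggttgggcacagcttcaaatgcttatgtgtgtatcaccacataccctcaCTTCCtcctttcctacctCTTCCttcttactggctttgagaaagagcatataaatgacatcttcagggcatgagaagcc
On hg19 these stretches lie at chr17:42467018-42467267 (ITGA2B, minus strand), chr22:19710812-19711061 (GP1BB, plus strand), chr3:128779372-128779621 (GP9, plus strand) and chr4:74853908-74854157 (PPBP, minus strand), each found at 1 place by exact match. They differ in base composition. The ratio of CpG dinucleotides observed to those expected from C and G content, over the 300 bases, was 0.926 at GP1BB, 0.277 at GP9, 0.111 at ITGA2B, 0.067 at PPBP and 0.054 at SELP. Among the 15842 protein-coding promoters of that table these values stood at percentiles 77.3, 18.0, 6.2, 3.2 and 2.5, so that 4 of the 5 promoters were poor in CpG and GP1BB was rich in it. A GATA word was present in the 300 bases of ITGA2B, GP1BB, PPBP and SELP and not of GP9, against 19.66% of all promoters. An ETS word was present in all 5, against 74.08% of all promoters. The KLF word CCNCNCCC, searched on both strands and overlapping the ETS word at GP1BB, was present at ITGA2B, GP1BB and GP9, against 66.75% of all promoters. At ITGA2B the GATA word TGATAG lay 102 to 97 bases before the start.

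In NTC cells 5, 3 and 4 of the 9 genes had a peak within 1 kb of a start, in METTL3-KO 2 and 1, in each METTL14-KO library 1, and in neither WTAP-KO library any. Over all protein-coding genes the share with such a peak ran from 46.8% to 47.9% in the NTC libraries, 33.5% to 34.6% in METTL3-KO, 13.2% to 21.1% in METTL14-KO and 11.4% to 12.9% in WTAP-KO. Within 5 kb each NTC library had a peak at 6 of the 9 genes, and the KO libraries had as many as within 1 kb. Per library the lists held 21724 to 21941 peaks in NTC, 9205 and 9369 in METTL3-KO, 3169 and 5286 in METTL14-KO and 3160 and 3673 in WTAP-KO. The lists hold no read totals, so depth is unknown, and a gene without a peak is listed at 0. The lower values of each library, the only ones checked, were whole multiples of a step, within 0.05 of a step. The lowest listed signal, 30.1 to 32.0 in all 9 libraries, was 24 to 28 steps in NTC and 30 to 94 steps in KO libraries. Whether this difference in what a call required had a part in the losses was not tested. In bulk libraries such as these, fewer cells with the mark and less of the mark per cell cannot be told apart.

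**Figure D1:**
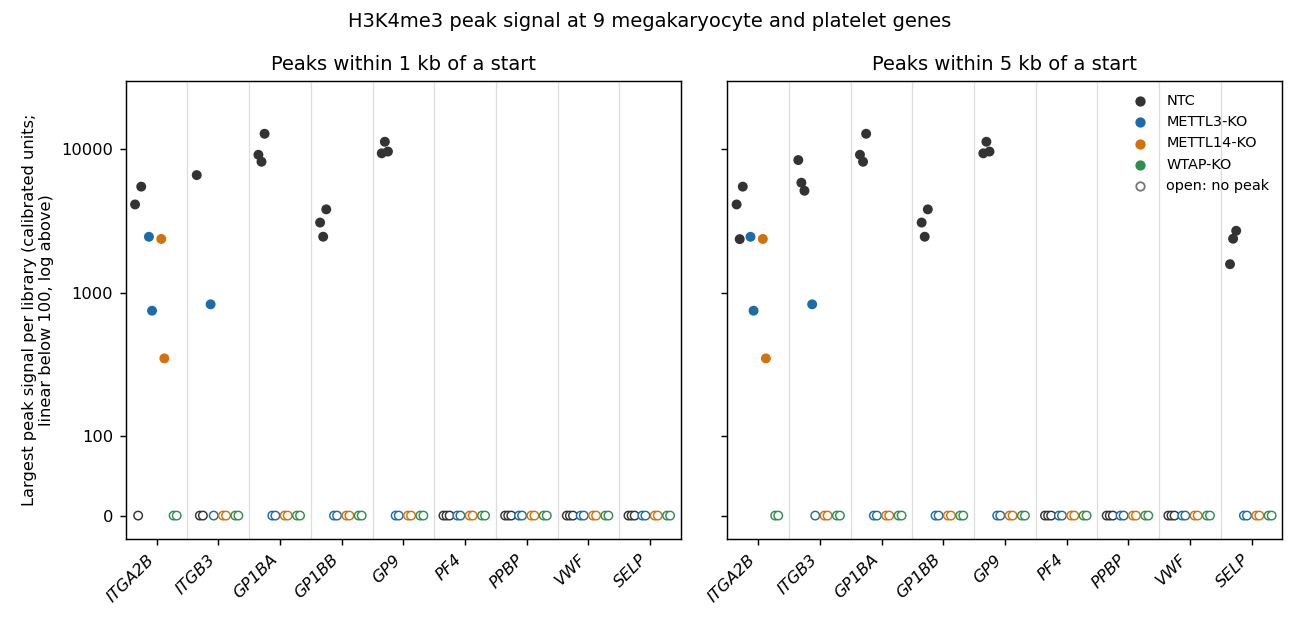
Largest H3K4me3 peak signal at each of the 9 genes, 1 point per library (3 NTC, 2 of each KO), for peaks within 1 kb (left) and 5 kb (right) of a start, on an axis that is linear below 100 and logarithmic above. Open points at 0 are libraries without a peak. GP1BA, GP1BB and GP9 have filled points in the 3 NTC libraries but never in a KO library, while KO points lie above 0 at ITGA2B and ITGB3.

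Of the von Willebrand factor receptor, GP1BA, GP1BB and GP9 had a peak over the start in all 3 NTC libraries and none in any of the 6 KO libraries. GP9, a small leucine-rich subunit, had signals of 9389, 11306 and 9661 in the NTC libraries (10119 ± 1037, SD, n = 3) and was listed at 0 in all KO libraries. Its NTC peaks were 1137 to 1541 bp wide and covered the start at chr3:128779622, on the plus strand, and the nearest KO peak lay 59.9 to 99.9 kb away. The nearest start of another coding gene (EFCC1) was 30.3 kb from that of GP9. GP1BA, the subunit that touches von Willebrand factor, had NTC signals of 9171, 8201 and 12856 (10076 ± 2456, SD, n = 3) and was listed at 0 in all KO libraries. A further peak lay 1708 to 1782 bp after the GP1BA start at chr17:4835572 in each NTC library, with signals of 7103 to 7397. GP1BB, the subunit linked to GP1BA by a disulfide bond, had NTC signals of 3086, 2458 and 3815 (3120 ± 679, SD, n = 3) around its start at chr22:19711062 and was listed at 0 in all KO libraries. At these 3 genes the NTC and KO libraries did not overlap. The same loss of every KO peak was seen at 45.8% of all genes with a peak in all NTC libraries.

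In a limma fit over 12037 genes with a peak in at least 2 libraries, on log2(signal + 30.1), the change from NTC to all KO groups was -8.39 at GP9 (SE 0.115, adjusted p = 1.26e-08), -8.36 at GP1BA (SE 0.168, adjusted p = 2.91e-08) and -6.69 at GP1BB (SE 0.151, adjusted p = 4.76e-08). The SE and adjusted p of these 3 genes leave out any spread below the calling limit. Because every KO value was 0, these sizes follow from the NTC signal and the added 30.1 and are no measured fold. For the same reason the change was equal in the 3 KO groups, with adjusted p from 6.07e-08 to 2.28e-07, and between METTL3-KO and the other KO groups it was 0, with a 95% interval of -0.34 to 0.34 at GP9 and -0.50 to 0.50 at GP1BA. Lower calls are common in these data: 73.0% of all genes tested were lower in all KO groups together, 60.9% in METTL3-KO, 68.8% in METTL14-KO and 69.7% in WTAP-KO. Of the 5 genes described here that could be tested, 3 were lower in each of these 4 comparisons, which is near those shares, and none was among the 14.3% of genes that were higher in the KO groups together. The median change was -6.69 over these 5 genes and -5.30 over all genes tested. GP1BA, GP1BB and GP9 entered the fit through their NTC peaks alone, so they could not come out higher. Their adjusted p-values are therefore no test of them, and these counts and this median only describe the genes.

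At the NTC signal of GP9 and GP1BA most genes kept a peak in some KO library, while GP9 and GP1BA kept none. Of the 8495 genes with a peak in all NTC libraries, 45.8% had none in any KO library. This share fell with the NTC signal, from 92.6% in decile 1 of that signal to 2.12% in decile 10. GP9 and GP1BA stood at percentiles 80.5 and 80.4 of NTC signal, in decile 9, where 83 of 849 genes (9.78%) had no peak in any KO library. GP1BB stood at percentile 31.6, in decile 4, where 65.4% had none. The lists do not say how the signal relates to peak length, so these ranks compare peak signals and not the density of the mark. The GP1BA peaks also lie within 1 kb of a start of CHRNE, a subunit of the muscle acetylcholine receptor whose start is 2161 bp away. The largest signals within 1 kb of GP1BA and CHRNE are therefore the same, and on this measure the genes cannot be told apart. The further NTC peak after the GP1BA start lies over that CHRNE start. METTL3-KO libraries did have peaks 8.1 kb from the GP1BA start, with signals of 942 and 619.

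**Figure D2:**
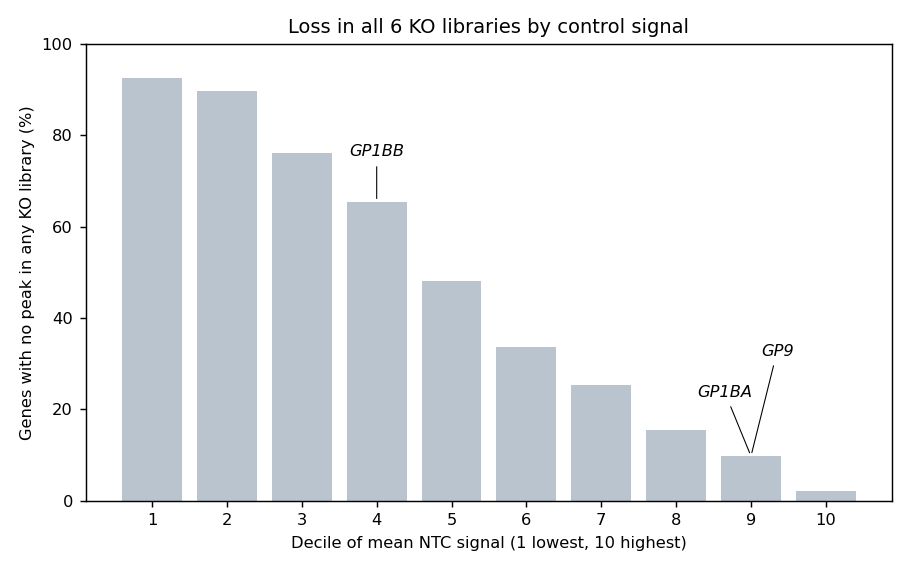
Share of genes with no peak in any of the 6 KO libraries (y axis, %) among genes with a peak in all 3 NTC libraries, by decile of the mean NTC signal (x axis), with the deciles that hold GP1BB, GP1BA and GP9 marked. The share is 65.4% in the decile of GP1BB and 9.78% in that of GP1BA and GP9.

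The fibrinogen receptor genes gave a different picture, since their KO libraries were not all empty. ITGA2B, the alpha chain and the classic surface marker of megakaryocytes (CD41), had signals within 1 kb of 4129, 0 and 5497 in NTC, 2456 and 749 in METTL3-KO, 2371 and 348 in METTL14-KO and 0 in both WTAP-KO libraries. The METTL3-KO and METTL14-KO values lay within the NTC range, and WTAP-KO shared the value 0 with NTC replicate 2. The change over all KO groups was -1.37 (SE 1.83, adjusted p = 0.502), and the groups gave 0.65 in METTL3-KO (adjusted p = 0.819), 0.11 in METTL14-KO (adjusted p = 1) and -4.88 in WTAP-KO (adjusted p = 0.1). These values depended on which NTC library was in the fit. Without NTC replicate 2, whose peak lay 1270 bp from the start and outside the window, the change was -3.81 (adjusted p = 0.00913), and -7.32 in WTAP-KO (adjusted p = 0.00165). Leaving out NTC replicate 1 gave -0.26 over all KO groups (adjusted p = 0.912) and -3.76 in WTAP-KO. Leaving out NTC replicate 3 gave -0.05 (adjusted p = 0.982) and -3.56 in WTAP-KO. Within 5 kb the signals were 4129, 2364 and 5497 in NTC and the same as before in the KO libraries. The change was then -3.48 over all KO groups (SE 0.719, adjusted p = 0.0035), -6.98 in WTAP-KO (adjusted p = 0.000415), -1.45 in METTL3-KO (adjusted p = 0.194) and -1.997 in METTL14-KO (adjusted p = 0.0878). In the order of the 5 kb means, NTC, METTL3-KO and METTL14-KO overlapped with their neighbours, and WTAP-KO stood apart at 0.

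At ITGA2B the peaks of NTC and KO cells were not in the same place. In NTC they lay in the gene body, at chr17:42465215-42466252, chr17:42465231-42465747 and chr17:42464979-42466060 with a smaller one at chr17:42464127-42464738, so that their nearest edges were 765, 1270 and 957 bp after the start at chr17:42467017 on the minus strand. In METTL3-KO they lay over the start, at chr17:42466816-42467394 and chr17:42466819-42467043, and in METTL14-KO at chr17:42466929-42467444 and chr17:42466876-42467028. The KO peaks were 153 to 579 bp wide, and the NTC peaks within 1 kb were 612 to 1082 bp wide. Of the 250 bases printed above for ITGA2B, replicate 1 of METTL3-KO and of METTL14-KO had a peak over all 250. Replicate 2 of METTL3-KO had one over the 26 next to the start, and replicate 2 of METTL14-KO over the 11 next to it. No NTC or WTAP-KO library had a peak over any. With only peaks over a start counted, the signal was 0 in all NTC libraries and the KO values stayed as given, and the fitted change was 5.53 in METTL3-KO, 4.98 in METTL14-KO, 0 in WTAP-KO and 3.50 over all KO groups. These sizes follow from the KO signals and the added 30.1, and ITGA2B entered that fit only through the KO libraries with a peak, so they are a description and no test of it.

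The comparison at ITGA2B therefore depended on the window: within 5 kb the KO groups together were lower, and over the start itself only METTL3-KO and METTL14-KO libraries had a peak. Among the 9351 genes tested for a peak over the start, 73.0% were lower and 13.9% higher over all KO groups. ITGA2B was 1 of 562 genes (2.79% of all) whose start lay under a peak in all 4 METTL3-KO and METTL14-KO libraries but never in NTC, and of these 562 genes 106 (18.9%) also had a peak within 5 kb in every NTC library. No listed peak in any library was wider than 2000 bp or narrower than 150 bp. In NTC no peak was called from the ITGA2B peaks across the start for the next 112 to 122 kb, and the part of the width limit in this gap was not tested. Between METTL3-KO and the other KO groups the difference at ITGA2B was 3.04 within 1 kb (95% interval -2.40 to 8.47, adjusted p = 0.396) and 3.04 within 5 kb (0.90 to 5.17, adjusted p = 0.0447), where METTL3-KO and METTL14-KO values overlapped and the WTAP-KO libraries were at 0. None of the 5 genes passed this test within 1 kb, against 30.1% of all genes tested in either direction. GP1BA, GP1BB and GP9 were at 0 in every KO library, so their difference was fixed at 0 and they could not pass.

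**Figure D3:**
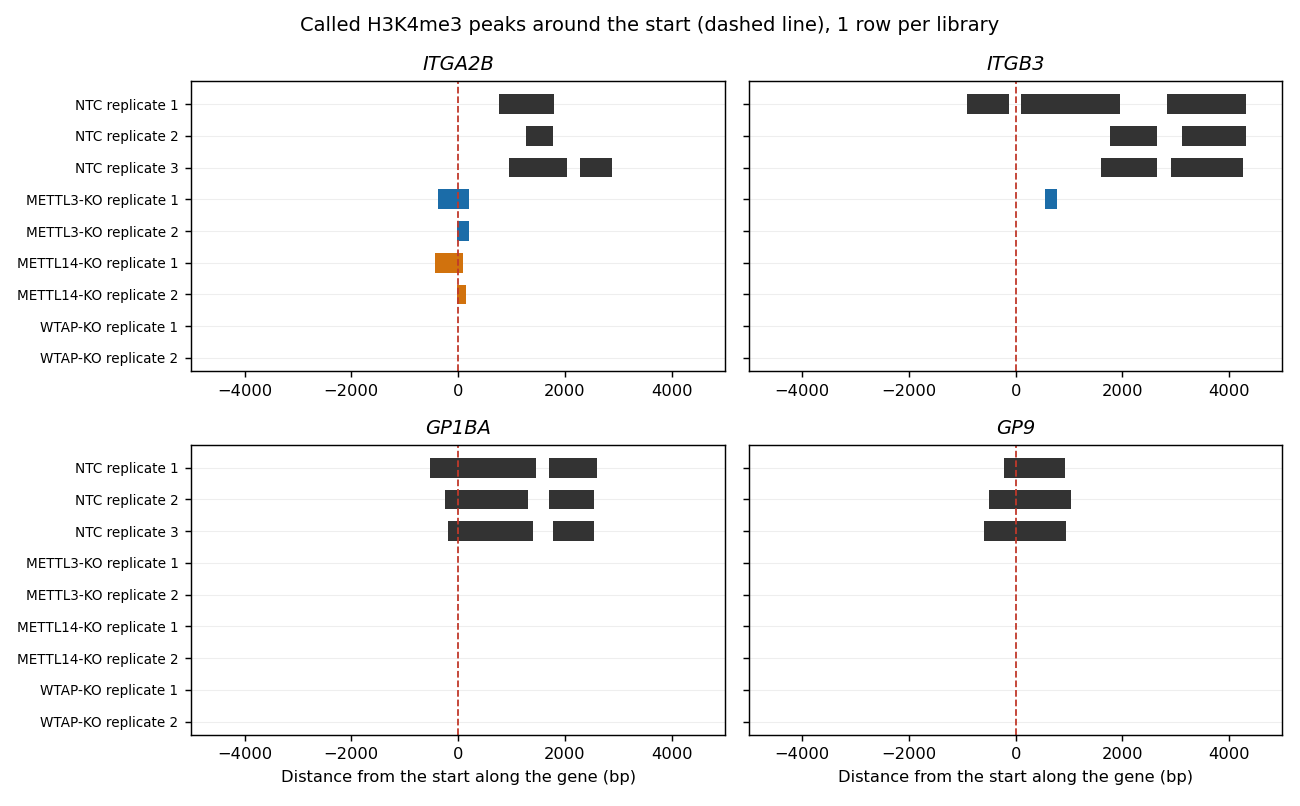
Called H3K4me3 peaks from 5 kb before to 5 kb after the start (dashed line) at ITGA2B, ITGB3, GP1BA and GP9, 1 row per library, with distance in bp along the direction of the gene on the x axis. At ITGA2B the NTC peaks begin 765 bp or more after the start and the METTL3-KO and METTL14-KO peaks cross it, while at GP1BA and GP9 the peaks across the start are all from NTC.

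ITGB3, the beta chain that pairs with ITGA2B and also with the vitronectin receptor's alpha chain, had an NTC peak within 1 kb in replicate 1 (signal 6616) and none in replicates 2 and 3. METTL3-KO replicate 1 had a small peak 533 bp from the start, 223 bp wide with a signal of 830, and the other 5 KO libraries had none. The change within 1 kb was -1.79 (SE 2.06, adjusted p = 0.438) and rests on NTC replicate 1 and METTL3-KO replicate 1, without either of which the gene could not be tested. Within 5 kb every NTC library had a peak, with signals of 8422, 5855 and 5145 (6474 ± 1724, SD, n = 3), against 830 in METTL3-KO replicate 1 and 0 in the other 5 KO libraries. On that window the change was -6.92 over all KO groups (SE 0.987, adjusted p = 0.000561), -5.31 in METTL3-KO (adjusted p = 0.00852) and -7.72 in METTL14-KO (adjusted p = 0.0013) and WTAP-KO (adjusted p = 0.0012). Over all genes tested within 5 kb, 76.3% were lower over all KO groups.

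Around the ITGB3 start at chr17:45331193, on the plus strand, NTC replicate 1 had peaks at chr17:45330277-45331069 and chr17:45331302-45333156, which left 232 bp uncalled over the start and together spanned 2880 bp. In replicates 2 and 3 the first peaks began at chr17:45332971 and chr17:45332786, after stretches of 14986 and 14635 bp without a call that took in the start. The span in replicate 1 is above the widest peak of any list, 2000 bp, and whether that limit removed a peak in the other NTC libraries was not tested. A gene model without a symbol (ENSG00000259753) has its start 70 bp from that of ITGB3 and shares all its peaks.

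The ligand and granule genes had little or no called H3K4me3 at their starts. PF4 and PPBP, neighbours on chromosome 4 with starts at chr4:74847744 and chr4:74853907, had no peak within 5 kb in any of the 9 libraries. The nearest peaks to PPBP were 104.9 to 105.1 kb away in NTC and 50.7 kb away in both METTL3-KO libraries. VWF, with its start at chr12:6233836, likewise had none within 5 kb in any library, and its nearest NTC peaks were 198.4 to 198.6 kb away. No change can be given for these 3 genes, and a gene without a listed peak is not shown to lack the mark. SELP (start at chr1:169599362) had no peak within 1 kb, but had NTC peaks 2.7 to 4.4 kb from its nearest start with 5 kb signals of 1581, 2380 and 2704 (2221 ± 578, SD, n = 3), and its nearest KO peaks were 105.4 to 223.4 kb away. Its 5 kb change was -6.19 (SE 0.18, adjusted p = 1.38e-07). Without any KO peak, this size follows from the NTC signal and the constant added to every signal, and is no measured fold. Its SE and adjusted p leave out any spread below the calling limit. Within 5 kb 6 of the 9 genes could be tested and all 6 were lower over all KO groups. The share over the 12819 genes tested on that window was 76.3%. Since GP1BA, GP1BB, GP9 and SELP entered this fit through their NTC peaks alone, they could not come out higher. The count therefore only describes the genes and does not set them apart from the others tested.

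Over the 9 libraries, the gene whose log2(signal + 30.1) followed ITGA2B most closely was ZNF543 (Pearson r = 0.990), and 11 other genes had peaks in just the same libraries as ITGA2B. For ITGB3 it was the unnamed model that shares its peaks, with 28 other genes on the same libraries. For GP1BA it was CHRNE, again through shared peaks, for GP1BB C5orf22 and for GP9 SEPTIN8. GP1BA, GP1BB and GP9 each shared the pattern of a peak in NTC alone with 3892 other genes, 32.3% of those tested, so these likenesses rest on 1 contrast between NTC and KO.

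Other platelet genes, from 3 lists, lost called peaks in part. Beside each list stand the shares over all genes: 45.8% of genes with a peak in all NTC libraries had none in any KO library, and 73.0% of genes tested were lower and 14.3% higher. Of 25 further receptor and surface genes, 10 had a promoter peak in all NTC libraries and 5 of these (50%) in no KO library. Of the 16 tested 12 were lower (75.0%) and 3 higher. GP5, the remaining subunit of the Ib-IX complex, had an NTC signal of 15601 ± 2609 (SD, n = 3), and 1 METTL3-KO library kept a peak of 490 (change -8.32, SE 0.845, adjusted p = 9.97e-05). GP6, the collagen receptor, had 11321 ± 2231 (SD, n = 3) and was listed at 0 in all KO libraries (-8.54, adjusted p = 2.15e-08). For GP6 and every gene below listed at 0 in all KO libraries, the fitted size follows from the NTC signal and the added 30.1. Such genes could be tested only through their NTC peaks, so their adjusted p describes them and is no test of them. ITGB1, a beta chain of collagen and fibronectin receptors, had peaks in 5 KO libraries, the highest at 5425, and fell by 3.92 (adjusted p = 0.0210), a call lost with centring (-1.33, adjusted p = 0.318) and with values divided by the step (-2.84, adjusted p = 0.141). Centring left 9 of these genes lower and 3 higher. The receptor genes that were higher had no NTC peak: CD63, a granule membrane tetraspanin (1.70, adjusted p = 0.00918), P2RY1, an ADP receptor (1.77, adjusted p = 1.70e-05), and F11R, a junctional adhesion molecule (2.44, adjusted p = 0.0224), all with their mean KO signal highest in METTL3-KO. For these and the other genes below that had no NTC peak, the fitted size follows from the KO signals and the added 30.1. They could be tested only through their KO peaks, so their adjusted p is likewise no test of them. The part of the 2000 bp width limit in their missing NTC peaks was not tested.

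Of 26 granule and secretion genes, 10 had peaks in all NTC libraries and 2 of these (20%, against 45.8% of all genes) in no KO library, with 10 of 16 tested lower (62.5%, against 73.0%) and 2 higher. Here 4 genes kept a peak in all 6 KO libraries, all of them lower than in NTC: SNAP23, the membrane fusion protein of granule release (NTC 22360 ± 5032, SD, n = 3, KO 613 to 6672), VAMP8, its vesicle partner (NTC 10609 ± 1086, KO 1001 to 4772), BLOC1S3, of the complex that builds dense granules (NTC 16901 ± 1404, KO 1027 to 6840), and MCFD2, a cargo receptor subunit for coagulation factors (NTC 12010 ± 758, KO 1111 to 6278). Their changes ran from -3.39 to -2.44, with adjusted p from 0.000114 to 0.000513. With libraries centred on genes that have a peak in all 9, the changes of these 4 genes were -0.80 to 0.14 (adjusted p from 0.0524 to 0.612), and 5 genes of the list were lower and 2 higher. With values divided by the step, 7 were lower and 2 higher, and VAMP8 (adjusted p = 0.098) and MCFD2 (adjusted p = 0.0779) did not pass. CLU, a secreted chaperone stored in alpha granules, had an NTC signal of 12919 ± 1707 (SD, n = 3) and kept a peak in 1 KO library (-8.00, adjusted p = 0.000185). THBS1, an adhesive alpha granule protein, was higher (2.41, adjusted p = 0.00217), as was VIPAS39, needed for granule assembly (4.86, adjusted p = 0.00149), and neither had an NTC peak.

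Of 26 signalling and cytoskeleton genes, 16 had peaks in all NTC libraries and 6 of these (37.5%, against 45.8% of all genes) in no KO library, with 17 of 21 tested lower (81.0%, against 73.0%) and 1 higher (15 and 1 with centring). LYN, a Src family kinase, had the highest NTC signal of the list (28518 ± 1835, SD, n = 3) and kept peaks of at most 4498 in 5 KO libraries (-5.50, adjusted p = 0.00286). RAP1B, the small GTPase that switches the fibrinogen receptor on, had 13840 ± 3146 (SD, n = 3) and was listed at 0 in all KO libraries (-8.82, adjusted p = 2.72e-08). FERMT3, the kindlin that binds the ITGB3 tail, had 13465 ± 1779 (SD, n = 3) and kept peaks in 3 KO libraries, both of METTL3-KO and 1 of METTL14-KO, (-6.44, adjusted p = 0.000625). The gene that was higher was LCP2, an adaptor downstream of the collagen receptor, with no NTC peak and peaks in METTL3-KO (2.36, adjusted p = 0.000166).

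Among 14 transcription factor genes of the megakaryocyte lineage, 10 had peaks in all NTC libraries and 3 of these (30%, against 45.8% of all genes) in no KO library, with 10 of 14 tested lower (71.4%, against 73.0%) and 1 higher (8 and 2 with centring). RUNX1, a core factor of the lineage, had an NTC signal of 773 ± 176 (SD, n = 3) and KO signals of 1268 to 7726, so it was higher in all 6 KO libraries (2.40, SE 0.518, adjusted p = 0.00443). Whether its NTC and KO peaks lay at the same start, or the 2000 bp width limit left out a wider NTC peak, was not tested. FLI1, the ETS factor of megakaryocytes, also had peaks in all KO libraries, of 7434 to 17053, and in 1 NTC library, where the signal of 41598 was above every KO value. The NTC mean of FLI1 (13866) was thus above its KO mean (11073), while the fitted change was 5.00 (SE 2.44, adjusted p = 0.0943) with the other NTC libraries listed at 0. The part of the 2000 bp width limit in those zeros was not tested. This change passed with centring (7.59, adjusted p = 0.0198) and with values divided by the step (6.41, adjusted p = 0.0444). MRTFA, a cofactor of serum response factor, had 16779 ± 1643 (SD, n = 3) in NTC and fell by 6.10 (adjusted p = 0.00166). ETV6, an ETS repressor, had 12517 ± 3464 (SD, n = 3) and fell by 6.22 (adjusted p = 0.00281).

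Marker genes of other lineages were read in the same way. Of 20 erythroid genes, 5 had peaks in all NTC libraries, among them GYPC (10278 ± 1299), KLF1 (10008 ± 1383) and EPOR (8529 ± 965, SD, n = 3), and all 5 had none in any KO library (45.8% over all genes), while 10 of the 20 had no peak in any NTC library. Of the 11 tested, 5 were lower (45.5%, against 73.0% of all genes) and 2 higher (14.3% over all genes), the higher ones being ANK1, with KO signals of 2025 to 12838 and no NTC peak (7.29, adjusted p = 3.94e-06), and GYPB (2.45, adjusted p = 0.0298, and 0.0589 with values divided by the step). Centring gave 5 lower and 5 higher. Of 15 myeloid genes 2 had peaks in all NTC libraries (LYZ and CSF3R), of 14 endothelial genes 4 (among them ERG, TIE1 and EGFL7) and of 14 lymphoid genes 4 (among them CD79B and PAX5), and none of these 10 had a peak in any KO library, against 45.8% without one over all genes. The tested genes were lower for 2 of 2 myeloid, 5 of 7 endothelial and 4 of 4 lymphoid genes, against 73.0% of all genes, and 1 endothelial gene was higher, ESAM, which platelets also carry (6.44, adjusted p = 9.95e-06). With centring 4 endothelial genes were lower and 2 higher. ERG was in both the endothelial and the megakaryocyte factor list.

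**Figure D4:**
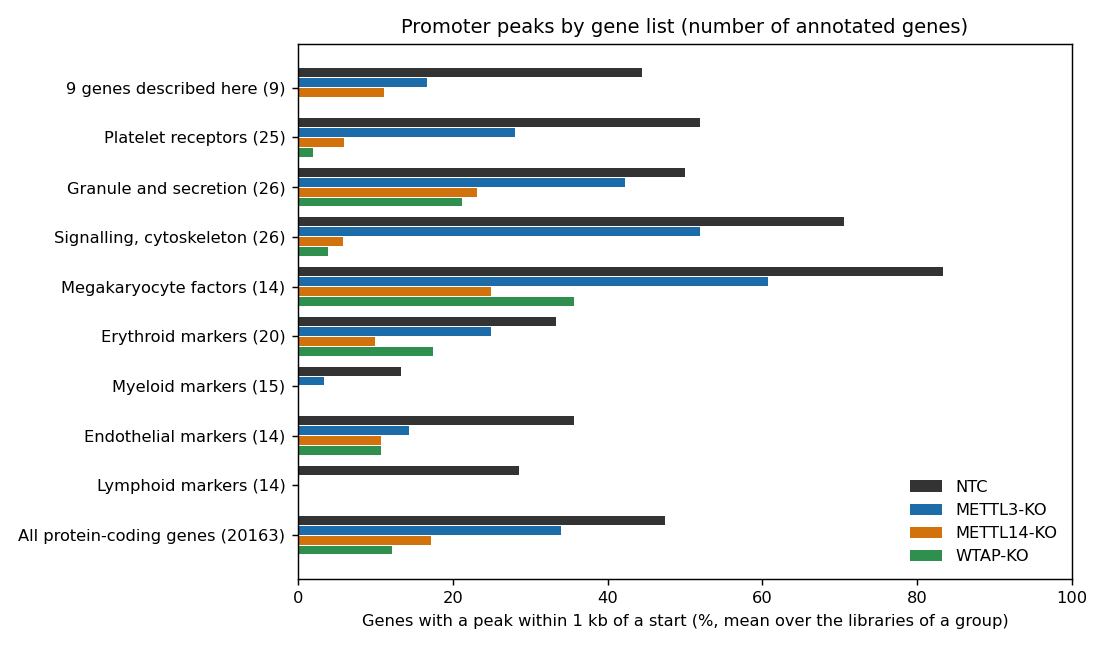
Share of genes with a peak within 1 kb of a start (x axis, %, mean over the libraries of a group) in the 9 genes, the 8 further lists and all protein-coding genes, with the number of annotated genes in brackets and 1 bar per group. The WTAP-KO bar is at 0 for the 9 genes and at 35.7% for the megakaryocyte factors, against 12.2% for all protein-coding genes. The NTC bars of these lists also differ, at 44.4%, 83.3% and 47.4% in the same order.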

How the data were processed

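H3K4me3 CUT&RUN was done in HEL cells, in 3 NTC libraries and 2 each of METTL3-KO, METTL14-KO and WTAP-KO, with groups read from their labels. Paired-end reads were aligned by the authors with Bowtie to hg19 and to the yeast genome sacCer3 of a spike-in (versions not given in the sources used here), duplicates were removed with Picard, coverage was calibrated to the spike-in, peaks were called library by library, and what the authors deposited is a 4-column list for each, with chromosome, start, end and a value read here as a calibrated signal, since the sources used here do not say how it was built. On that reading the lowest listed value was near the same in all libraries while its number of steps differed. Peak starts were read as counted from 0 and are printed from 1.

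For each of 20163 protein-coding genes (GENCODE lifted to hg19, every annotated transcript start) the largest signal of the peaks within 1 kb of a start was taken in each library, and 0 without a peak. limma 3.58.1 (R 4.3.3, trend option) was run on log2(signal + 30.1), 30.105 being the lowest listed signal, over the 12037 genes that had a peak in 2 or more libraries. The model had 4 groups and took in all 9 libraries, and p-values were adjusted over all genes (Benjamini-Hochberg, 0.05). A change on this scale understates that of weak peaks. Intervals use the degrees of freedom of the fit. The fit was tested on simulated data with Gaussian noise and no calling limit. That test does not cover genes listed at 0. Tables were made with Python 3.11.15, pandas 2.3.3, numpy 2.4.6 and figures with matplotlib 3.10.9. Promoter sequences are RefSeq's (GRCh38.p14).

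The 9 genes and the 8 further lists (155 entries) were chosen with earlier results of these data known, so no list was tested as a set. PECAM1 was not matched in the annotation used and MKL1 was read as MRTFA. Named genes were all 9, in each list the 3 with the highest mean NTC signal and those with a peak in all 6 KO libraries, genes sharing a peak within 1 kb of a start, and the gene most correlated with each tested gene. One gene that this rule names is not reported here. Genes that were higher and outside this rule (CD63, P2RY1, F11R, THBS1, VIPAS39, LCP2 and GYPB), and the neighbour EFCC1, were named after their values were seen. Alternatives were the pseudocount, the window, the sum of peaks, a higher peak threshold, the gene filter, centring, division by the step, fitting only the groups compared, the replicate block and leaving out each library.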

Additional observations from a re-analysis of the deposited data

How the results depend on the processing

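Across 22 alternative settings the 87 values computed for each of GP1BA, GP1BB and GP9 kept their direction and stayed past the threshold. Their KO values were 0 on every window, so apart from centring and the replicate block the direction could not have changed. Outside those settings the KO values also did not vary between libraries, so staying past the threshold is no added support. Of 147 values for the comparisons, 130 stayed within their limits. The members' median change of -6.69 over all KO groups moved to -9.996 and -3.487 with the pseudocount 0.1 and 10 times as large, -7.525 with a peak required in at least 3 libraries or over the start (4 genes tested), -4.099 with libraries centred on genes with a peak in all 9, and -1.913 with only peaks that reached the median NTC signal. Leaving out 1 library gave -7.551 to -6.531, the lowest without NTC replicate 1, where 4 genes were tested. The mean number of the 9 genes with a peak in an NTC library, 4 within 1 kb, was 6 within 5 kb, 5.333 within 3 kb and 3 over the start.

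Of 12037 genes tested, 9206 differed in WTAP-KO. With only peaks that reached the median NTC signal, 6117 of 8692 did. Between METTL3-KO and the other KO groups 3622 of 12037 differed. Of the same 12037, 6191 differed with centring and 2082 with values divided by the step. The counts were 2148 of 9351 over the start and 1126 of 8692 with the higher threshold. Leaving out 1 library gave 2389 of 11669 (without METTL3-KO replicate 1) to 4378 of 12016 (without METTL14-KO replicate 1). Centring moved the median change of all genes from -5.30 to -2.71 and the share of lower among called genes from 89.1% to 77.5% in METTL14-KO, 91.1% to 77.8% in WTAP-KO and 1.93% to 61.0% between METTL3-KO and the other KO groups. By its construction it also gave genes at 0 in all KO libraries a difference between KO groups, so that GP1BA, GP1BB and GP9 were lower in METTL3-KO than in the others (median -1.59).

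ITGA2B and ITGB3, not called within 1 kb, changed sign under some settings. ITGA2B over all KO groups was 1.2152 with centring and 3.5042 over the start. In METTL3-KO it was -0.2172 with the larger pseudocount, -1.4510 within 3 or 5 kb and -0.5832 with the higher threshold, and -1.7849 to 1.9752 leaving out 1 library. In METTL14-KO it was -0.5866, -1.9974 and -0.5967 in the same order, and -2.3313 to 1.4408 leaving out 1 library. ITGB3 with centring was 0.7977 over all KO groups, 1.3488 in METTL3-KO, 0.2122 in METTL14-KO and 0.8322 in WTAP-KO. In METTL3-KO it was also 0.3549 with the smaller pseudocount and 0.5519 with values divided by the step, and -1.4753 to 2.2402 leaving out 1 library. By construction the windows decide which peaks count, and centring moves all genes of a comparison by the same amount. For the other settings the cause was not tested.

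With the replicate block 10002 genes differed over all KO groups (10499 without), 8756 in METTL3-KO, 9329 in METTL14-KO, 9414 in WTAP-KO and 2746 between METTL3-KO and the others, the change was -8.42 at GP9, -8.18 at GP1BA and -6.53 at GP1BB, and no call on the 9 genes changed. Deviations of same-numbered libraries had a mean correlation of 0.00586 over 12 pairs (-0.0578 to 0.0950). In groups of 2 libraries the deviations mirror each other, so these pairs are not independent and the check is weak. The labels do not say what a replicate number shares, so the numbers were not taken as pairs. With 2 or 3 libraries in a group, the number of libraries limits the precision, and without read totals a missing peak cannot be set against depth.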
